A study of Homo sapiens with 6 samples.

Results

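The microRNA miR-122 was measured by 2 probes, 1 for each arm of its hairpin, among the 2019 human miRNA probes of a 1-colour array. The probes were chosen by name, hsa-miR-122-5p (MIMAT0000421) and hsa-miR-122-3p (MIMAT0004590), and each has 1 spot per array. The cells were HuH7, an established human hepatocellular carcinoma line, grown in serum-supplemented MEM. In the cisplatin group they received 1 µg/ml cisplatin, a platinum drug that crosslinks DNA, for 24 h, and in the control group none over the same 24 h, with 3 arrays in each group. Samples are numbered 1 to 3 within each group, and the labels do not say whether they came from separate cultures, so the spread behind every p-value is that between the samples as given and may be technical.

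A miRNA hairpin is cut from a longer transcript in the nucleus, trimmed to a short duplex in the cytoplasm, and 1 strand of the duplex is loaded into an Argonaute protein while the other is mostly degraded. The loaded strand pairs with messenger RNAs through its seed, the bases near its 5′ end, and lowers their translation and stability. miR-122 is the most abundant miRNA of hepatocytes. Its 5p arm is the loaded guide strand, which is known to restrain messages such as those of the cationic amino acid transporter CAT-1 and of aldolase A and is needed for the replication of hepatitis C virus RNA, and its 3p arm is the passenger strand.

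The sequences of both arms are given, with bases 2 to 8, the seed, in capitals, because the seed sets what each arm can pair with. They are those of RefSeq on the GRCh38.p14 build, in which both arms and the hairpin lie on the plus strand of chromosome 18.
miR-122-5p: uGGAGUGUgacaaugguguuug
miR-122-3p: aACGCCAUuaucacacuaaaua
The 5p arm spans positions 58451088 to 58451109 and the 3p arm 58451124 to 58451145, and both are 22 bases long. The seeds differ, and of the 2370 mature human miRNAs that RefSeq lists here, 0 others carry the seed of either arm. The hairpin of 85 bases (positions 58451074 to 58451158) is shown with the 2 arms in capitals, 14 bases apart.
MIR122 hairpin: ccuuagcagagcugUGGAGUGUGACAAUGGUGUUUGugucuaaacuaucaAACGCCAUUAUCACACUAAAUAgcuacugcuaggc
It lies inside the span of the long noncoding host gene MIR122HG (positions 58446263 to 58451281). A second miRNA gene, MIR3591, is annotated on the opposite strand of the same place (positions 58451080 to 58451152), and its mature products are shown because they are nearly the reverse complement of the miR-122 arms and have probes of their own.
miR-3591-3p: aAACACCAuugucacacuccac
miR-3591-5p: uUUAGUGUgauaauggcguuuga
Their capitals again mark the seed. miR-3591-3p is complementary to miR-122-5p over 21 bases, and miR-3591-5p to miR-122-3p over 20 bases.

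miR-122-5p gave a strong signal in every sample. The raw foreground, the median pixel intensity of the spot, was 4337, 4782 and 4901 on cisplatin arrays 1, 2 and 3, against 4739, 5169 and 5093 on control arrays 1, 2 and 3. The cisplatin array was the dimmer of each same-numbered pair, but the groups overlapped, since cisplatin 2 and 3 were above control 1. The means were 4673 ± 297 in cisplatin and 5000.3 ± 229 in control samples (SD, n = 3 each), a difference of -327 intensity units. The two-sided exact permutation p was 0.3, with 0.1 the lowest that 3 against 3 allows, in a test that leaves the pairs out. Within pairs 1, 2 and 3 the difference was -402, -387 and -192 units, which was not tested. An array's detection limit was set 2 SD above the mean of its 925 blank spots. The foreground of miR-122-5p was 19.4 to 21.6 times that limit on cisplatin arrays and 21.5 to 22.3 times on control arrays, so HuH7 cells carried their defining liver miRNA in both groups. The scanner's signal-to-noise score of the spot was 128, 88.0 and 102 on cisplatin arrays 1, 2 and 3, against 122, 78.4 and 85.9 on control arrays 1, 2 and 3.

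The passenger arm miR-122-3p was detected on all 6 arrays but lay close to the limit. Its raw foreground was 280, 319 and 326 on cisplatin arrays 1, 2 and 3, against 303, 372 and 354 on control arrays 1, 2 and 3. Again the cisplatin array was the dimmer of each same-numbered pair, and again the groups overlapped. The blank-spot limits of these arrays were 209, 247 and 227 for cisplatin and 220, 239.8 and 228 for control. The signal therefore exceeded the limit by only 71.4, 72.5 and 98.6 units on cisplatin arrays 1, 2 and 3, against 82.9, 132 and 126 units on control arrays 1, 2 and 3. Mean foreground was 308 ± 24.8 in cisplatin and 343 ± 35.8 in control samples (SD, n = 3 each, exact two-sided permutation p = 0.3). The signal-to-noise score of the 3p spot ranged from 2.74 to 4.07 on cisplatin arrays and from 3.05 to 4.04 on control arrays.

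The opposite-strand probes stayed near the blanks. miR-3591-3p read 180, 248 and 188 on cisplatin arrays 1, 2 and 3, against 214, 235 and 215 on control arrays 1, 2 and 3, and cleared the limit on 1 of 3 cisplatin arrays, by 1.47 units, and on 0 of 3 control arrays. miR-3591-5p read 198, 229 and 219 on cisplatin arrays, against 191, 236 and 221 on control arrays, and cleared it on 0 of 3 arrays in each group. Neither entered the test across probes. Signal at this locus was thus detected from the miR-122 strand, and from its opposite strand it was not detectable above the blanks on 5 of 6 arrays for the 3p probe and 6 of 6 for the 5p probe.

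**Figure D1:**
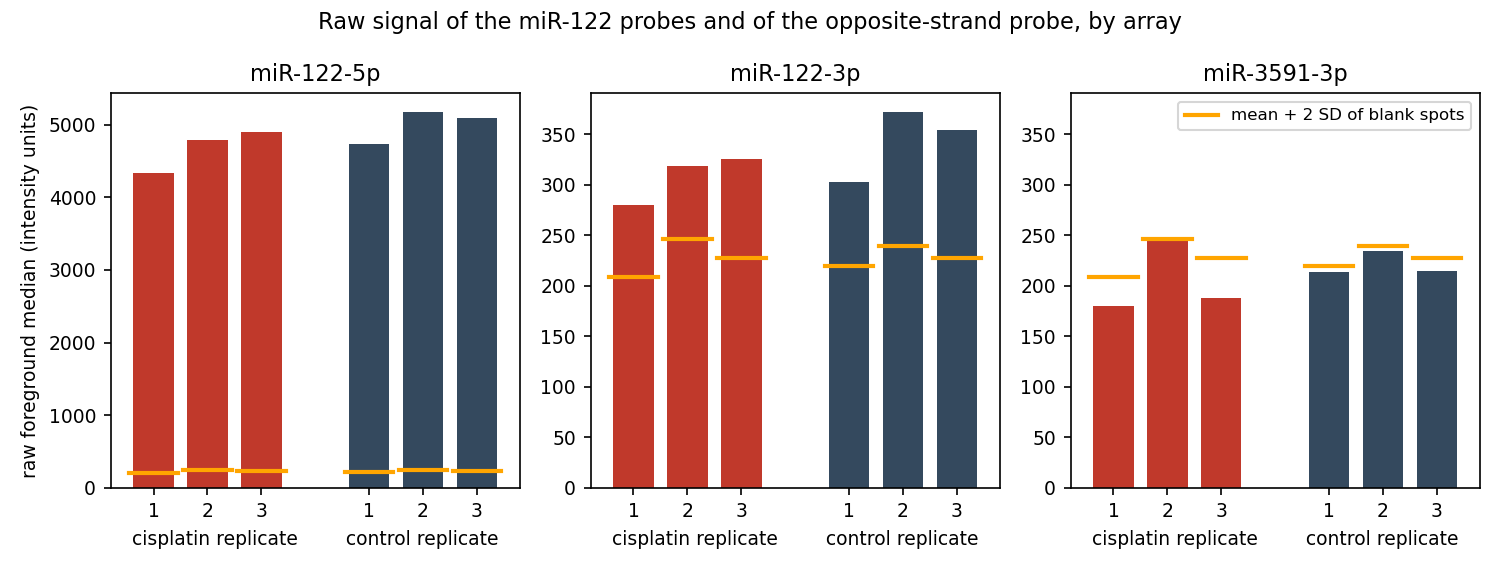
Raw foreground median (intensity units, linear axis from 0) of miR-122-5p, miR-122-3p and the opposite-strand miR-3591-3p on each of the 3 cisplatin and 3 control arrays; orange lines mark each array's blank-spot limit. miR-122-5p stands at 19.4 to 22.3 times the line, miR-122-3p 71.4 to 132 units above it, and miR-3591-3p at or below it except on cisplatin array 2.

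The comparison of the study asked which miRNAs differ after cisplatin. For it, the spot intensity was corrected for local background by normexp with an offset of 50, quantile normalization was run over the human probes, and limma was fitted to the log2 values of 324 probes. These are the probes above the blank-spot limit in every sample of the cisplatin group, of the control group or of both. Both arms were among these 324. In the whole fit 1 probe, or 0.309%, passed an adjusted p of 0.05, miR-1304-3p, named here because it is the single call, and it was higher after cisplatin. That probe was above the blank-spot limit on 3 of 3 cisplatin and 0 of 3 control arrays, so it entered the test only through the group where it is high, and 0 probes passed with the replicate block or without any 1 of the 6 arrays. Neither arm of miR-122 passed, and both had a lower fitted value after cisplatin.

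On the normalized log2 scale miR-122-5p stood at 12.07, 11.97 and 12.07 in cisplatin samples 1, 2 and 3, against 12.24 in each of the 3 control samples. The groups did not overlap. The log2 difference, cisplatin minus control, was -0.21 (SE 0.050, 95% interval -0.33 to -0.082, limma unadjusted p = 0.00721, Benjamini-Hochberg adjusted p = 0.129). The 3 identical control values come from the normalization, which gives every probe the value of its rank, so the control spread of this probe is 0 by construction and the SE is too small. Without the 5 tested probes of the same rank on every array, the SE was 0.086 (limma unadjusted p = 0.04, adjusted p = 0.336). The control spread of miR-122-5p stayed 0 in that fit.

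miR-122-3p stood at 7.45, 7.37 and 7.52 on the normalized log2 scale in cisplatin samples 1, 2 and 3, against 7.70, 7.87 and 7.86 in control samples 1, 2 and 3. Every cisplatin value was below every control value, with control 1 the lowest of its group. The log2 difference was -0.37 (SE 0.072, 95% interval -0.55 to -0.19, limma unadjusted p = 0.00291, adjusted p = 0.129). It was the fourth lowest of the 324 tested values, and that of the 5p arm was number 32 from the lowest. The offset of 50 shrinks the difference of a probe this dim.

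These counts are read against the whole fit. A fitted difference below 0 was found for 52.2% of the 324 probes, an unadjusted p under 0.05 with a lower value for 25 probes or 7.72%, and a cisplatin group wholly below the control group on the normalized scale for 33 probes or 10.2%. A lower normalized value in the cisplatin sample of 3 of 3 same-numbered pairs was found for 20.4%. Both arms belong to all 4 sets. On the raw scale 16.4% of the 324 probes were dimmer in the cisplatin array of 3 of 3 same-numbered pairs, as both arms were, while 3.4% had groups without overlap, which neither arm had.

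**Figure D2:**
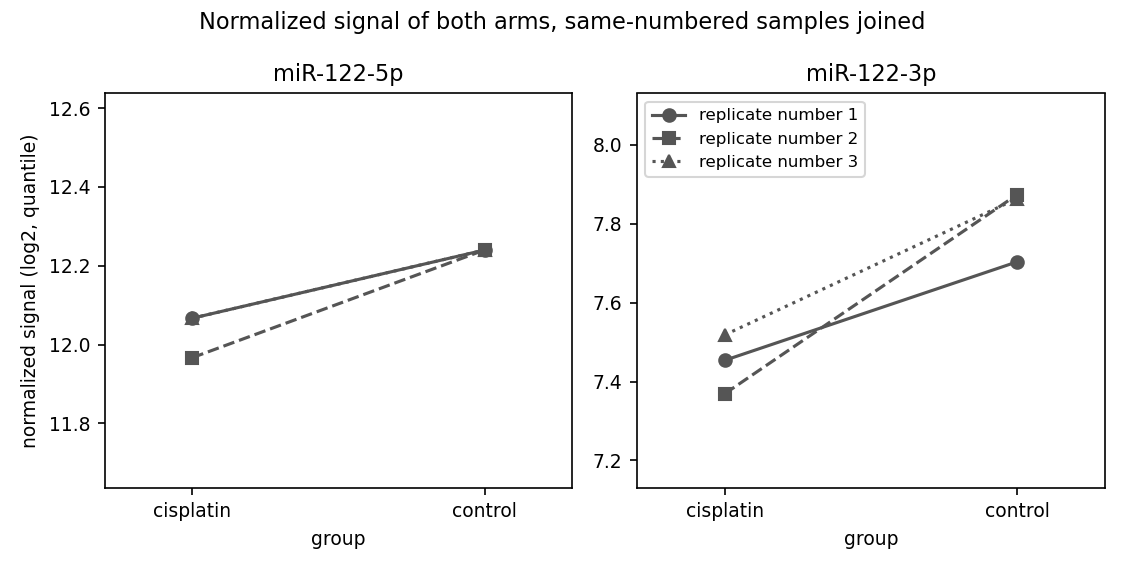
Normalized signal (log2) of miR-122-5p and miR-122-3p in cisplatin and control samples, with samples of the same number joined; both panels span 1 log2 unit. The cisplatin value is the lower in 3 of 3 pairs for both arms, the 5p points of numbers 1 and 3 coincide, and the 3 control points of the 5p arm coincide at 12.24.

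Within same-numbered pairs the normalized log2 difference of miR-122-5p was -0.17, -0.27 and -0.17 for numbers 1, 2 and 3. For miR-122-3p it was -0.25, -0.50 and -0.35. Number 2 had the lowest value of both arms. These pairs also follow the cell numbers in the scanner files. The files give cells 4, 2 and 4 for cisplatin arrays 1, 2 and 3, and cells 3, 1 and 3 for control arrays 1, 2 and 3. No cell held both groups, so cell and group cannot be told apart. Cells 1 and 2 were set against cells 3 and 4, a division chosen here that need not mark a slide or a batch. The pair in cells 2 and 1 is number 2, and the pairs in cells 4 and 3 are numbers 1 and 3. The values just given are thus also the values within each part of this division. With the division of the cells as a block, limma gave an adjusted p of 0.204 for both arms.

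In units of raw signal above the blank mean, the change of the cisplatin array relative to the control array of pairs 1, 2 and 3 was -8.58%, -7.76% and -3.89% for miR-122-5p. For miR-122-3p the change was -10.2%, -31.8% and -17.7%. The arrays themselves moved with this. Blank spots averaged 184, 211 and 205 on cisplatin arrays, against 196, 213 and 207 on control arrays, lower in the cisplatin array of 3 of 3 pairs, as was the median foreground of all human probes (216 ± 12.3 in cisplatin and 221 ± 6.66 in control samples, SD, n = 3 each, exact permutation p = 0.6). The 16 Spike Control spots went the other way. Their geometric mean was 8591, 10501 and 12472 on cisplatin arrays 1, 2 and 3, against 7565, 9897 and 10357 on control arrays 1, 2 and 3, brighter in the cisplatin array of each pair. The part of these array-wide shifts in the miR-122 values was not tested beyond the scalings that follow.

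The size of the 5p difference depended on how arrays were put on 1 scale. It was -0.083 with each array scaled to its median, -0.076 with the 75th percentile, -0.10 without normalization between arrays, -0.11 with pixel means in place of medians, -0.28 with scaling to the Spike Control spots and -0.31 with cyclic loess. Of these 6 settings only cyclic loess kept an unadjusted limma p under 0.05 for the 5p arm (p = 0.0140), and it was 0.118 to 0.473 in the other 5 and 0.538 with the authors' values. The 3p difference was -0.25, -0.25, -0.27, -0.33, -0.45 and -0.38 under the same 6 settings, and -0.19 with no background correction. For the 3p arm the unadjusted limma p was 0.0919 when scaled to the median, 0.0772 when scaled to the 75th percentile, 0.0798 if arrays were not normalized and 0.166 on the authors' values. Both arms stayed below 0 under all 21 alternatives, and neither passed an adjusted p of 0.05 in any of them (limma adjusted p from 0.0952 to 0.941 for the 5p arm and from 0.0735 to 0.941 for the 3p arm).

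**Figure D3:**
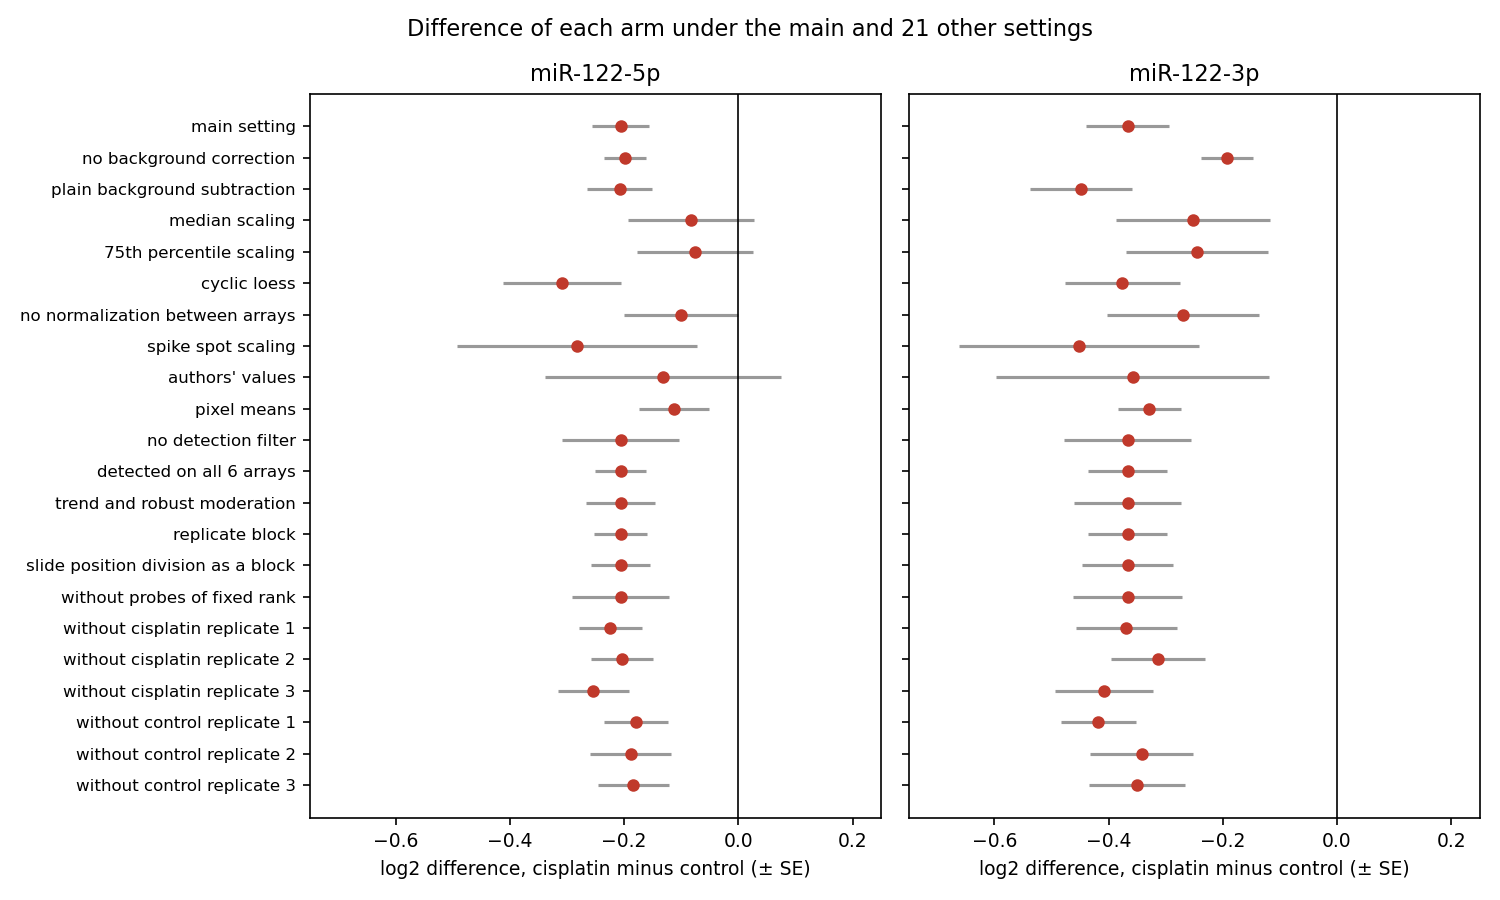
Log2 difference, cisplatin minus control, of miR-122-5p and miR-122-3p under the main setting and 21 others, with bars of 1 SE; the vertical line marks 0. All points are left of 0, the 5p arm from -0.31 to -0.076 and the 3p arm from -0.45 to -0.19.

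The ranks show what the normalized 5p value rests on. Ranked by corrected signal among the 2019 probes, with 1 the brightest, miR-122-5p was number 7, 8 and 7 on cisplatin arrays 1, 2 and 3, against number 6 on all 3 control arrays. Quantile normalization gives rank 6 the value 12.24, rank 7 the value 12.07 and rank 8 the value 11.97, so the difference of -0.21 is the step between these ranks. The probe that took rank 6 on the 3 cisplatin arrays was miR-130a-3p, named here after its values were seen. It was number 7, 9 and 9 on control arrays 1, 2 and 3, and its mean raw foreground was 4910 in cisplatin and 3883 in control samples. The other probe involved was miR-1273g-3p, which took rank 7 ahead of miR-122-5p on cisplatin array 2. A rank depends on the brightness of the other probes as well as on the probe's own, and brightness between probes is no measure of relative abundance. miR-122-3p, ranked the same way, was number 164.5, 174 and 156.5 on cisplatin arrays 1, 2 and 3, where tied probes share a mean rank, against number 139, 125 and 126 on control arrays.

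**Figure D4:**
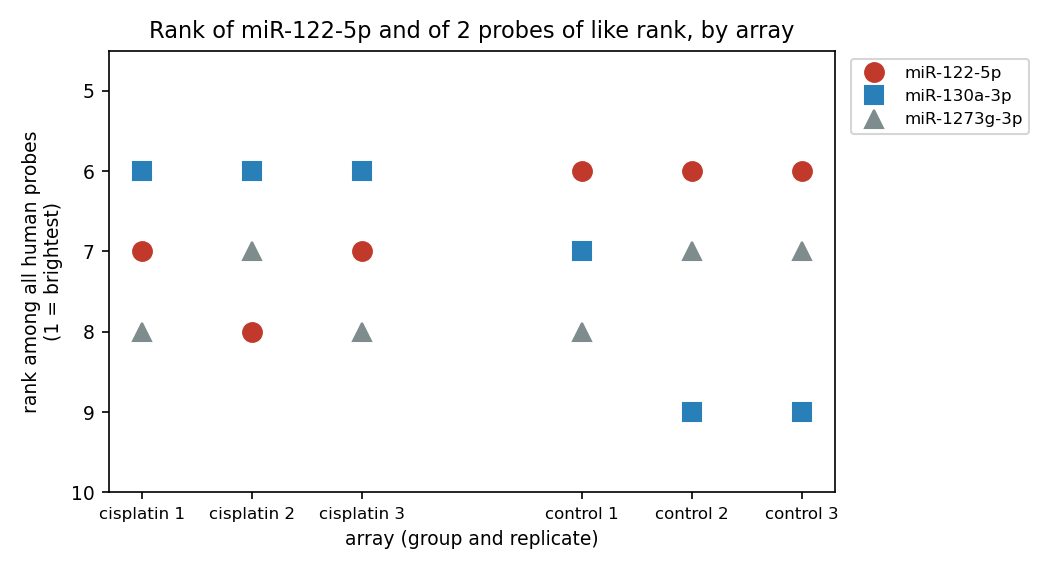
Rank by corrected signal among 2019 human probes (1 is the brightest, axis inverted) of miR-122-5p, miR-130a-3p and miR-1273g-3p on each array. miR-122-5p is number 6 on every control array and number 7, 8 and 7 on cisplatin arrays 1, 2 and 3, where miR-130a-3p is number 6.

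Because both arms come from 1 hairpin, the log2 value of the 5p arm minus that of the 3p arm was compared between the groups. It is no ratio of abundance, since the probes differ in affinity, and a change in it need not show unequal change of the arms. The normexp offset shrinks the difference of the dim 3p arm more than that of the bright 5p arm. Quantile normalization gives the 5p arm the value of its rank. The 5p minus 3p value was 4.61, 4.60 and 4.55 in cisplatin samples 1, 2 and 3, against 4.54, 4.37 and 4.38 in control samples 1, 2 and 3. The groups did not overlap, though cisplatin 3 and control 1 nearly met. The means were 4.59 ± 0.034 in cisplatin and 4.43 ± 0.095 in control samples (SD, n = 3 each), a difference of 0.16 (exact two-sided permutation p = 0.1, the smallest possible). It stayed above 0 under 14 of 15 alternatives and was highest, 0.24, with plain background subtraction (exact permutation p = 0.1). Scaling a whole array cancels between its 2 arms. Median, 75th percentile and Spike Control scaling and no normalization therefore gave the same value, 0.17 (exact permutation p = 0.2), and are no separate support. With the authors' values the difference was 0.23 (exact permutation p = 0.3). It was 0.067 with cyclic loess (exact permutation p = 0.8) and -0.0057 with no background correction (exact permutation p = 1). Its size thus depended on the processing, and an unequal change of the arms was not shown.

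Across the 6 arrays the normalized values of the 2 arms had a Pearson correlation of 0.95. As a description of likeness, 1 tested probe lay closer to miR-122-5p, miR-20b-5p with a correlation of 0.96 and a log2 difference of -0.27 (SE 0.041). The others among the 5 nearest, after the 3p arm itself, were miR-625-3p (correlation 0.95), miR-4667-5p (0.93) and miR-4737 (0.92), the last above the blank-spot limit on 0 of 3 cisplatin arrays. Closer to miR-122-3p than the 5p arm was were miR-625-3p (0.99), miR-18b-5p (0.98) and miR-140-3p (0.97), and miR-17-3p followed the 5p arm (both 0.95). All these points share 6 arrays and the same normalization, and each named probe had a lower mean in the cisplatin group, so the group difference enters each correlation.

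miR-122 was set beside other liver-enriched miRNAs. Of 15 such probes on the array 9 were tested, 6 had a value below 0 and 3 above, and 0 passed an adjusted p of 0.05 in either direction. Over all 324 tested probes 52.2% were below 0 and 0.309% passed. At an unadjusted limma p under 0.05, 3 of the 9 were lower and 0 higher, where 7.72% and 8.02% of all tested probes were. These 3 include both arms of miR-122, and without the arms 1 of 7 was lower. The median log2 difference of the 9 was -0.095, beside -0.012 over all 324 tested probes. Without the 2 arms of miR-122 it was -0.058 over 7 probes, 4 below 0 and 3 above. miR-148a-3p, made abundantly by hepatocytes, stood at -0.19 (SE 0.18) and miR-378a-3p, encoded in an intron of the metabolic coactivator gene PPARGC1B, at -0.16 (SE 0.063, limma unadjusted p = 0.0480, adjusted p = 0.312). miR-885-5p stood at -0.095 (SE 0.078), and miR-192-5p, which is induced by p53, at -0.058 (SE 0.069). The remaining members were miR-194-5p, encoded beside miR-192, at 0.021 (SE 0.090), miR-215, which shares the miR-192 seed, at 0.032 (SE 0.12), and miR-101-3p, which targets the histone methyltransferase EZH2, at 0.037 (SE 0.093). Both arms of miR-122 had the lowest values of the list, but whether they differ from its other members was not tested.

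**Figure D5:**
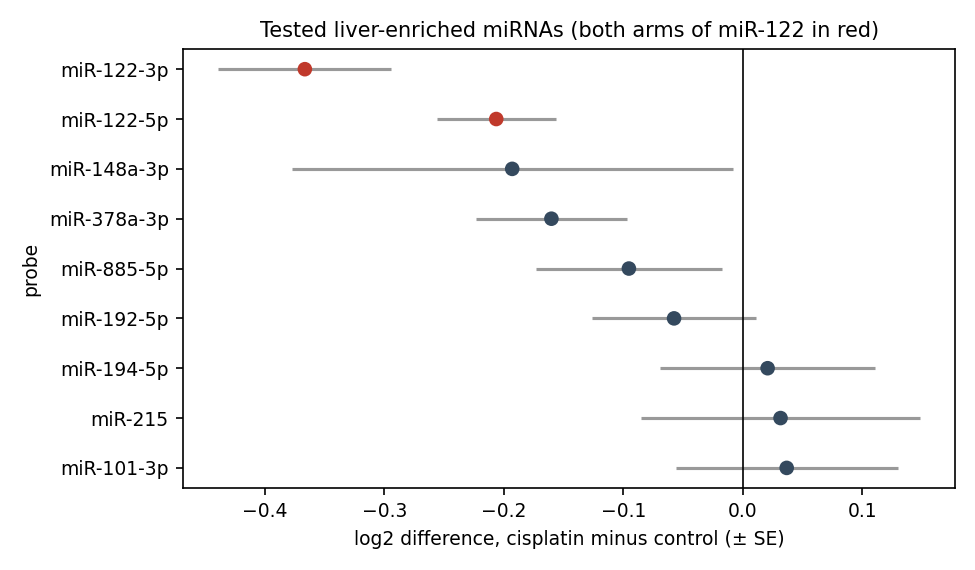
Log2 difference, cisplatin minus control, with bars of 1 SE, for the 9 tested liver-enriched miRNA probes, both arms of miR-122 in red. The lowest are miR-122-3p at -0.37 and its partner arm at -0.21, and the highest is miR-101-3p at 0.037.

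miR-122 is also known as a miRNA that hepatocellular carcinomas tend to lose. Of the 19 probes for such miRNAs on the array, 14 were tested, 9 had a value above 0 and 5 below, and 0 passed. Over all 324 tested probes 52.2% were below 0 and 0.309% passed. The median log2 difference of the 14 was 0.031, beside -0.012 over all tested probes, and 0.037 over the 13 without miR-122-5p. At an unadjusted p under 0.05 miR-122-5p was the 1 lower member of 14, where 7.72% of all tested probes were lower, and 0 were higher, where 8.02% were. After miR-122-5p the bright members were miR-22-3p at 0.16 (SE 0.11), miR-26a-5p at 0.057 (SE 0.079), miR-29a-3p, a regulator of collagen messages, at 0.30 (SE 0.16), miR-99a-5p at 0.026 (SE 0.12), miR-125b-5p at 0.0071 (SE 0.074), miR-100-5p at -0.028 (SE 0.099) and miR-29b-3p at 0.13 (SE 0.14). The dim let-7c, of a family that represses growth genes, stood at -0.20 (SE 0.089), with a raw foreground of 228 to 259 on cisplatin and 250 to 271 on control arrays.

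Markers of cells other than hepatocytes were mostly dim. Of 6 blood and 4 muscle miRNA probes 0 were tested, of 3 neural probes only miR-128 (-0.058, SE 0.12), and of 6 endothelial and stromal probes 4, with a median log2 difference of 0.093. Of these 4, 0 passed, where 0.309% of all 324 tested probes did.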

How the data were processed

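The 6 scanner files, as deposited, hold linear intensity (pixel median and pixel mean of spots and of their surroundings, per the file headers) and a signal-to-noise score per spot. Hy5 was the dye, per the labels' protocols. What scanner, software and processing steps were used is not stated in those sources. A table of processed intensity from the authors, deposited for the series with probes near the blanks left empty, served as an alternative only. Each of the 6 deposited tables was mapped to its sample, and 0 columns were left over.

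Values were computed in limma 3.58.1 under R 4.3.3 (normexp with offset 50 on all spots, quantile normalization over 2019 human probes, lmFit and eBayes with 4 residual and 1.52 prior degrees of freedom, Benjamini-Hochberg over 324 probes at 0.05). Figures were drawn with matplotlib 3.10.9. The number of arrays limits the precision. Detected probes numbered 713, 329 and 643 on cisplatin arrays 1, 2 and 3, against 703, 500 and 738 on control arrays 1, 2 and 3; cisplatin array 2 had the widest blank spread (SD 18.0). Steps were also run on simulated data, and the outcome is not given here and is not used as support. Single values were compared with exact two-sided permutation tests.

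The labels' numbers were taken to pair the samples. Same-numbered samples deviated together from their group means (correlation 0.44 for number 1, 0.235 for number 2 and 0.204 for number 3). However, cisplatin 2 and control 3 correlated too (0.229), more than the pair of number 3. Same-numbered arrays also fall in the same part of the division of the scanner cells, so this check cannot tell paired samples from a shared part of that division. The probes, the lists and the settings were chosen with earlier results of these data known. Named are the 2 arms, the miR-3591 probes, members of the 2 miRNA lists and the 5 probes nearest to each arm by Pearson correlation, with miR-128 from the lists of cell type markers. miR-1304-3p, miR-130a-3p and miR-1273g-3p lie outside this rule and were named after their values were seen. A probe that carries several names, such as that of miR-199a-3p, was left out of the lists. Of 2042 probe names, 1716 matched the RefSeq table.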

Additional observations from a re-analysis of the deposited data

How the results depend on the processing

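Both arms of miR-122 kept a value below 0, and an adjusted p above 0.05, under all 21 alternatives. The replicate block, the division of the cells as a block, the moderation, the detection filter and leaving out probes of fixed rank cannot change the value itself, so the kept sign says nothing there. With the replicate block the value was -0.21 for the 5p arm (limma adjusted p = 0.185) and -0.37 for the 3p arm (adjusted p = 0.184), and the block changed no call of either arm. Leaving out 1 array gave -0.25 to -0.18 for the 5p arm and -0.42 to -0.31 for the 3p arm. With the authors' values the differences were -0.13 and -0.36, or -0.27 and -0.50 relative to the median tested probe, which itself moved by 0.14, and with Spike Control scaling that median was -0.11. The difference between the arms was 0.16, with a range of 0.11 to 0.24 over fits without 1 array, and turned to -0.0057 with no background correction, where the 5p arm stood at -0.20 and the 3p arm at -0.19. The number of probes that passed was 1, and 3 with no background correction, 2 with median scaling, 3 with the 75th percentile and 4 with cyclic loess. It was 0 in limma with no normalization, Spike Control scaling, the authors' values, pixel means, no detection filter, detection on all 6 arrays, trend and robust moderation and the replicate block, with 33, 13, 25, 39, 97, 39, 38 and 57 probes at an unadjusted p under 0.05. It was 0 also without any 1 of the 6 arrays, with the detection filter applied to the other 5, with 47 to 85 such probes. The limit on miR-122-3p is its signal, at most 1.55 times the blank-spot limit.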

Other observations

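The next brightest liver-enriched probes moved the other way on the raw scale, seen after their values were known and not tested. miR-192-5p had a raw foreground of 1517, 2150 and 2073 on cisplatin arrays 1, 2 and 3, against 1322, 1550 and 1634 on control arrays 1, 2 and 3. miR-194-5p had 1634, 2321 and 2488 on cisplatin arrays, against 1343, 1766 and 1955 on control arrays. Both were brighter in the cisplatin array of each same-numbered pair, where miR-122-5p was dimmer in each, and normalization brought them to -0.058 and 0.021 on the log2 scale. The Spike Control spots were brighter in the cisplatin array of each pair as well. Of the 324 tested probes 16.4% were dimmer in 3 of 3 pairs on the raw scale, and the share brighter in 3 of 3 was not counted. Whether the rise is particular to these liver-enriched probes was therefore not tested.

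Set against the Spike Control spots of its own array, the blank-corrected raw signal of miR-122-3p was 0.0114, 0.0105 and 0.00987 on cisplatin arrays 1, 2 and 3, against 0.0145, 0.0164 and 0.0145 on control arrays 1, 2 and 3, without overlap (exact two-sided permutation p = 0.1, the smallest possible). For miR-122-5p it was 0.494, 0.444 and 0.383 on cisplatin arrays, against 0.616, 0.512 and 0.481 on control arrays, where cisplatin 1 exceeded control 3 (exact permutation p = 0.2). The spike spots were brighter in the cisplatin array of each pair, which lowers this measure for a probe of unchanged signal. With Spike Control scaling the median log2 difference of all 324 tested probes was -0.11. How many of the 324 had groups without overlap on this measure was not counted. What the spike spots control for is not given in the sources used here.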
